A study of Mus musculus with 10 samples.

Results

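The antioxidant defence genes considered here are 10 genes of the KEAP1-NRF2 pathway and the enzymes that dispose of superoxide and hydrogen peroxide. They are Nfe2l2, Keap1, Hmox1, Nqo1, Gclc, Gclm, Txnrd1, Sod1, Sod2 and Cat. Their members in the data were all peaks of the CUT&Tag quantification assigned to these symbols, with no threshold on a measured value. The peak set appears to be one of H3K18La in developing retina, on which the explant libraries of both marks were quantified, so a peak or its absence is no statement about the explants or about H3K27Ac. There were 22 such peaks of 108253 in all. Of the 22 peaks, 10 were promoter peaks, 1 for each gene, of 17144 promoter peaks in the series. The other 12 lay outside promoters, with 5 assigned to Txnrd1, 4 to Gclc and 1 each to Hmox1, Nqo1 and Gclm. No peak outside a promoter was assigned to Nfe2l2, Keap1, Sod1, Sod2 or Cat.

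CUT&Tag places a tagging enzyme on chromatin through an antibody, so that sequenced fragments mark where a histone modification lies. The modifications were lactylation of histone H3 lysine 18 (H3K18La), which is linked to lactate, the end product of glycolysis, and acetylation of histone H3 lysine 27 (H3K27Ac), a mark of active promoters and enhancers. All libraries came from retinas of wild-type C57BL/6J mice at postnatal day 28, with the sclera and retinal pigment epithelium removed, cultured for 48 h in Neurobasal-A medium with 5 mM or 25 mM glucose and then rinsed and held in a buffer before 500000 dissociated cells entered each assay. H3K18La was profiled in 3 libraries at each glucose level and H3K27Ac in 2 at each level, all of labelled batch 1. A whole explant mixes the retinal cell types, and an explant cut off from its blood supply is a limited model of the retina in the animal. The study's methods call replicates biological, but the labels do not say whether replicate libraries came from separate animals. P-values therefore measure at most the spread between these samples, which may be technical. For H3K27Ac that spread was a trend over all tested peaks, and the spread of a single peak did not enter its p-value.

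NRF2, the product of Nfe2l2, is the main transcription factor of the cellular response to oxidants. In unstressed cells KEAP1 binds NRF2 and brings it to a ubiquitin ligase for destruction. Oxidants and electrophiles modify KEAP1, NRF2 then accumulates, pairs with small MAF proteins and binds antioxidant response elements near its targets. In the retina, photoreceptors meet an unusual oxidative load because of their oxygen use, their exposure to light and their lipid-rich outer segments.

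Peaks upstream of Hmox1 and Gclc held an antioxidant response element core, TGACNNNGC on either strand, whereas the promoter peaks of these genes held none. These stretches are shown for the fitted H3K27Ac changes of their peaks on the log2 scale. The change was 0.56 at the first, which did not pass the test described below, and 1.81 at the second, the most of the tested member peaks. The Sod1 stretch is shown because it carries the same letters near a start site. Capitals mark the core match, and each line is read 5′ to 3′ on the strand of the gene (GRCm38, read from the reference genome). The Hmox1 stretch is chr8:75089683-75089773 on the + strand, between genes, and its 2 matches lie 3919 and 3867 bases upstream of the annotated start. The Gclc stretch is chr9:77750730-77750768 on the + strand, also between genes, with its match 3786 bases upstream of the start. The Sod1 stretch is chr16:90220947-90221046 on the + strand, within Sod1 and overlapping an exon of a noncoding Sod1 transcript, with matches 212 and 273 bases downstream of the start.
Hmox1 upstream peak: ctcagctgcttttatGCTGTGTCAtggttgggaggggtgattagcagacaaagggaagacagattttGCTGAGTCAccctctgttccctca
Gclc upstream peak: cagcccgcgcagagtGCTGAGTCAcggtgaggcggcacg
Sod1 promoter peak: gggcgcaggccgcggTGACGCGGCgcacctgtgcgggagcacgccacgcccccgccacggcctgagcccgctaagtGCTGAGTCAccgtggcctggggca

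The member peaks held 23 matches to the core in all, and 3 of these overlapped a match to the AP-1 site TGANTCA, 1 each in the Hmox1, Gclc and Sod1 stretches above. In whole peaks, the core was present in 6 of 10 member promoter peaks against 41.2% of all promoter peaks, and in 4 of 12 member peaks outside promoters against 29.6% of all such peaks. In windows of 300 bases centred on the peak, it was present in 2 of 10 and 3 of 12, against 14.0% and 12.7%. The whole promoter peak of Sod1 held 4 matches, those of Gclm and Sod2 3 each, Nfe2l2 and Txnrd1 2 each and Keap1 1, whereas the promoter peaks of Nqo1, Cat, Hmox1 and Gclc held none. The Nqo1 promoter peak reached 160 bases upstream of its start and the Gclc promoter peak 65, so letters further upstream were not in these windows. A match is a run of letters and not evidence that NRF2 was bound.

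GC boxes, GGGCGG on either strand, were present in all 10 member promoter peaks, against 68.9% of all promoter peaks. Member promoter peaks had a median width of 1368.5 bases against 1115 for all promoter peaks, and wider peaks have more room for a match. This applies to the whole-peak shares of the core above as well. In the centred windows GC boxes were present in 6 of 10 against 44.8%. The FOXO site GTAAACA was absent from the centred windows of all 22 member peaks and present once in a whole peak, that of Cat, against 10.2% of all promoter peaks. Member promoter peaks had a median GC content of 59.7% (range 51.7% to 72.6%) against 57.5% for all promoter peaks, with Gclc the richest and Txnrd1 the poorest. The 250 bases before the RefSeq start (GRCm38.p6) of 3 members are shown because H3K27Ac differed most at Gclm and least at Nqo1 among the promoter peaks, and because Nfe2l2 carried the most H3K18La at 25 mM. Capitals mark GC boxes and antioxidant response element cores. The windows are chr2:75704664-75704913 on the - strand for Nfe2l2, which also overlaps the antisense gene E030042O20Rik, chr3:122245307-122245556 on the + strand for Gclm and chr8:107403206-107403455 on the - strand for Nqo1. The Nfe2l2 and Gclm windows each hold 1 core and 3 GC boxes, and the Nqo1 window holds 2 GC boxes and no core.
Nfe2l2: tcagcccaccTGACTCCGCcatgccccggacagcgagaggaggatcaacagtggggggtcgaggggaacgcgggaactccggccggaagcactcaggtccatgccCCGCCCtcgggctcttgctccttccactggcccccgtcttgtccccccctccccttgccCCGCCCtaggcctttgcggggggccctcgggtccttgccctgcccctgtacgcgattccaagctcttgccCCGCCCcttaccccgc
Gclm: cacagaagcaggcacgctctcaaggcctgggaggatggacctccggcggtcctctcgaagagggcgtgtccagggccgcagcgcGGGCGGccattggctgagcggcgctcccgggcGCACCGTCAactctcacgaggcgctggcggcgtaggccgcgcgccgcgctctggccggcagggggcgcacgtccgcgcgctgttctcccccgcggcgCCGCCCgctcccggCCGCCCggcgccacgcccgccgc
Nqo1: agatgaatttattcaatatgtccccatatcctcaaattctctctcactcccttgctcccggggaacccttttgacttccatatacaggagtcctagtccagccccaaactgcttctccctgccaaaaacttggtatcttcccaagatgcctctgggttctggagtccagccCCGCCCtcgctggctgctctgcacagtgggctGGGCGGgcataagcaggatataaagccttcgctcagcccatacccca

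All levels below are RPKM, reads per kilobase of peak scaled to the total reads of the library, as deposited, so that levels of different peaks are given per length. The libraries held 1358008 to 7424470 reads. The share of reads in peaks moved with glucose. It was 11.8% to 12% at 5 mM and 31.2% to 35.0% at 25 mM for H3K18La, and 21.1% and 31.5% against 69.5% and 56.5% for H3K27Ac. Because RPKM divides by all reads of a library, this shift enters every level given here. Changes were tested with limma on log2(RPKM + 0.5) in the 72467 peaks with a mean of at least 1 RPKM over the 10 libraries, p-values were adjusted over all of them by the Benjamini-Hochberg method, and fold changes on that scale understate the change of low peaks. Of the 22 member peaks 17 were tested, all 10 promoter peaks and 7 others, and 2 of these 7, both in the first intron of Txnrd1, were below 1 RPKM on average at 5 mM. Marker genes of retinal and other cell types were looked up, although having a peak is a property of the shared peak set and checks no library's label. All 6 rod genes had a promoter peak, with summed levels per library of 10.8 to 12.9 RPKM at 5 mM and 52.9 to 126 RPKM at 25 mM for H3K18La, and 44.2 to 80.3 against 212 to 390 RPKM for H3K27Ac. The sums of the cone, bipolar, amacrine and Mueller glia lists, with 4, 4, 3 and 4 genes, were also higher at 25 mM without overlap in H3K27Ac, such as 14.3 to 27.8 against 72.0 to 77.8 RPKM for bipolar cells. Those of the 2 ganglion cell genes overlapped, at 0.524 to 2.42 against 1.11 to 1.96 RPKM for H3K18La and 0.891 to 1.90 against 0.808 to 2.09 RPKM for H3K27Ac. No erythroid gene of 3, 1 of 4 microglial genes (not Cx3cr1, P2ry12 or Csf1r) and 2 of 4 retinal pigment epithelium genes (not Rpe65 or Lrat) had a promoter peak. The 3 of 4 endothelial genes with one summed to 2.87 to 6.62 RPKM at 5 mM and 2.25 to 3.17 RPKM at 25 mM for H3K18La, which overlapped. Their H3K27Ac sums of 7.34 to 8.31 against 4.68 to 6.41 RPKM were lower at 25 mM without overlap. The sums of the 2 retinal pigment epithelium genes were 2.17 to 10.6 against 11.8 to 19 RPKM for H3K18La and 3.71 to 5.81 against 8.4 to 12.1 RPKM for H3K27Ac, higher at 25 mM without overlap. They came mostly from Rgr, with H3K18La means of 4.76 and 13.0 RPKM beside 0.734 and 1.77 RPKM for Best1. The 10.6 RPKM was Rgr alone in the shallowest library. These sums therefore do not show how much of that tissue remained. The single microglial gene had 0.528 to 1.66 against 1.94 to 3.87 RPKM for H3K18La and 0.332 to 1.04 against 1.06 to 1.5 RPKM for H3K27Ac, also higher without overlap. The part of these shifts in the results for the antioxidant genes was not tested.

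At the promoters of the antioxidant defence genes both marks were higher on average at 25 mM glucose in all 10 genes. For H3K18La, 3 of the 10 promoter peaks passed the test, those of Nfe2l2, Keap1 and Hmox1, and all 3 rose. Over all tested promoter peaks 26.8% rose, so that the share among members was near the background. For H3K27Ac, 8 of the 10 rose, against 58.0% of all tested promoter peaks, and Nqo1 and Cat did not pass. No member peak fell in either mark by limma, at an unadjusted p under 0.05 or by voom on the recovered reads. Over all tested peaks 33.3% rose and 0.0980% fell for H3K18La, and 33.5% rose and 0.174% fell for H3K27Ac. In a tissue of mixed cells, more cells carrying a mark and more of the mark per cell cannot be told apart.

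**Figure D1:**
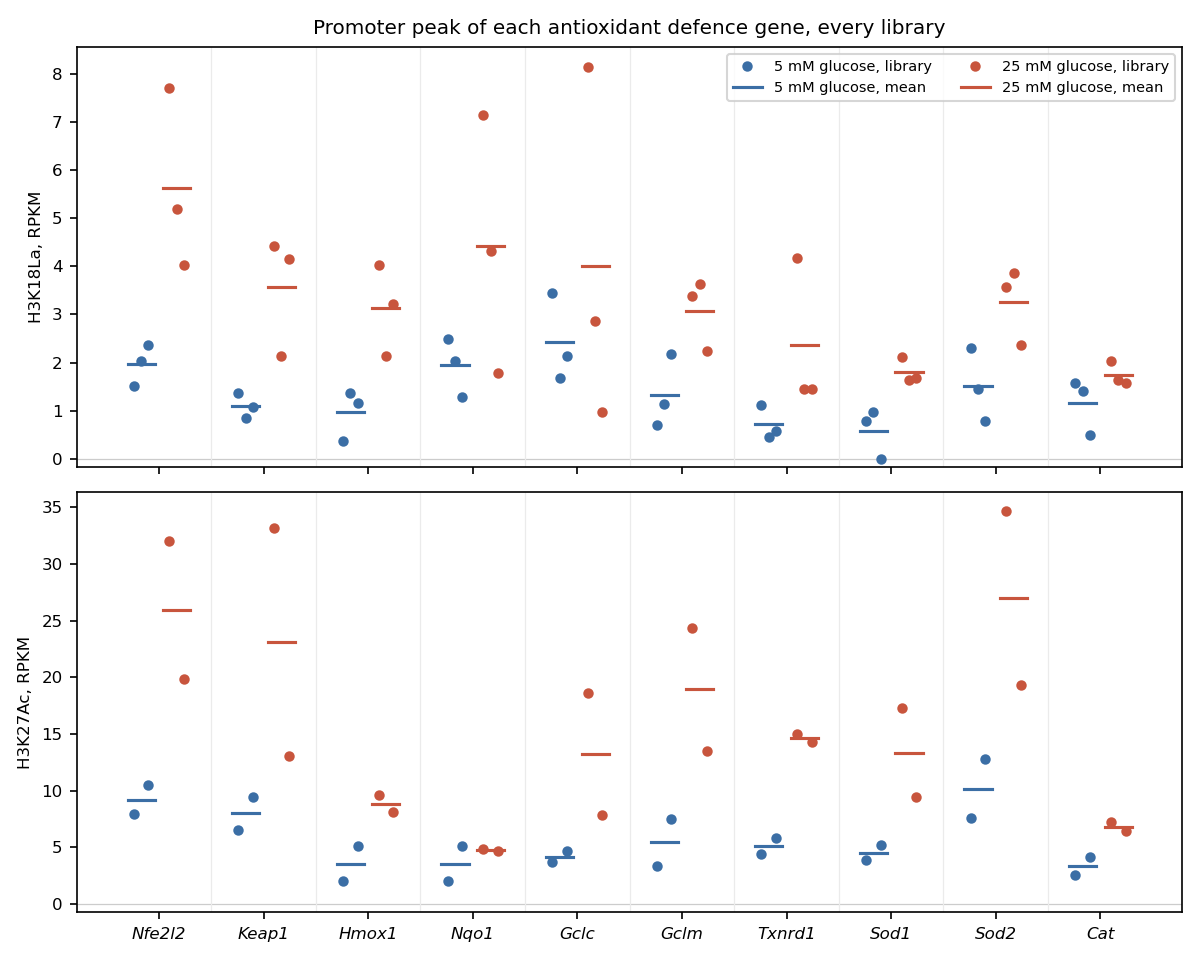
RPKM in the promoter peak of each antioxidant defence gene for H3K18La (top; 3 libraries per glucose level) and H3K27Ac (bottom; 2 libraries per level); points are libraries and short lines are group means. The 25 mM libraries lie above all 5 mM libraries in 7 of 10 genes for H3K18La and in 9 of 10 for H3K27Ac, beside 50.4% and 86.1% of all tested promoter peaks. The 7 include Sod1, where a 5 mM library held no read.

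The promoters of the transcription factor and of its sensor rose in both marks. Nfe2l2 (ENSMUSG00000015839, promoter peak chr2:75703396-75705577) encodes NRF2 itself. Its H3K18La levels were 1.52, 2.03 and 2.36 RPKM at 5 mM and 7.69, 5.18 and 4.02 RPKM at 25 mM. Every 25 mM library was above every 5 mM library, and the means were 1.97 ± 0.42 and 5.63 ± 1.88 RPKM (SD, n = 3). The log2 fold change was 1.28 (SE 0.35, adjusted p = 0.0179), and it did not pass without the first or the second 25 mM library (adjusted p = 0.0709 and 0.0583). H3K27Ac at this peak was 7.95 and 10.5 RPKM at 5 mM and 32.0 and 19.8 RPKM at 25 mM, again without overlap. The log2 fold change was 1.42 (SE 0.51, adjusted p = 0.0240). The peak also covers the start of the antisense gene E030042O20Rik, and CUT&Tag signal does not tell the strands apart.

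Keap1 (ENSMUSG00000003308, chr9:21238242-21239620) encodes the sensor that holds NRF2 down. Its H3K18La levels were 1.38, 0.84 and 1.07 RPKM at 5 mM and 4.43, 2.14 and 4.16 RPKM at 25 mM. The groups did not overlap, and the log2 fold change was 1.31 (SE 0.42, adjusted p = 0.0342). It did not pass without the second 5 mM or the first or the third 25 mM library (adjusted p of 0.0858 to 0.120). H3K27Ac was 6.54 and 9.46 RPKM at 5 mM and 33.2 and 13.1 RPKM at 25 mM. The 25 mM libraries stood further apart, as a ratio, than at any other member promoter, and the log2 fold change was 1.35 (SE 0.50, adjusted p = 0.0267). Without the first of these libraries it was 0.70 and without the second 2.01, and neither passed (adjusted p = 0.596 and 0.158). The activator and its inhibitor thus moved in the same direction in both marks, as did all 10 member promoters. Over all tested peaks only 0.0980% fell for H3K18La and 0.174% for H3K27Ac, so a shared direction is the background. Scaled to reads in peaks, the H3K18La log2 fold changes were 0.032 at Nfe2l2 and 0.19 at Keap1, and neither passed.

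Hmox1 and Nqo1 are classical NRF2 targets. Hmox1 (ENSMUSG00000005413, chr8:75092956-75094217) encodes heme oxygenase 1, which breaks down heme. Its H3K18La levels were 0.376, 1.38 and 1.17 RPKM at 5 mM and 4.03, 2.14 and 3.21 RPKM at 25 mM. All 25 mM libraries were higher, although the first 5 mM value rests on 1 read, and the log2 fold change was 1.34, the largest of the 17 tested member peaks for this mark (SE 0.47, adjusted p = 0.0470, or 0.0728 without a filter on low values). With 1 library left out it passed in 1 of 6 fits, the one without the third 5 mM library. H3K27Ac was 2.02 and 5.10 RPKM at 5 mM and 9.58 and 8.11 RPKM at 25 mM, and here the log2 fold change was 1.31 (SE 0.45, adjusted p = 0.0176), or 0.73 without the first 5 mM library, when it did not pass (adjusted p = 0.164).

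Nqo1 (ENSMUSG00000003849, chr8:107402797-107403366) encodes a quinone reductase that keeps quinones from cycling through radicals. Its H3K18La levels were 2.50, 2.03 and 1.29 RPKM at 5 mM and 7.14, 4.31 and 1.77 RPKM at 25 mM. The groups overlapped, since the third 25 mM library, with 3 reads in the peak, was below 2 of the 5 mM libraries, and the change did not pass (log2 fold change 0.87, SE 0.47, adjusted p = 0.165). It was 0.47 without the first 25 mM library, and 1.35 without the third, when it passed (adjusted p = 0.0466). H3K27Ac was 2.03 and 5.08 RPKM at 5 mM and 4.88 and 4.73 RPKM at 25 mM. Both 25 mM values lay between the 5 mM values, and the log2 fold change of 0.50 was the smallest among member promoters (95% interval -0.36 to 1.36, adjusted p = 0.371). Without the first 5 mM library it was -0.075, and without the second it was 1.07 and passed (adjusted p = 0.0227). Nqo1 was the only member promoter where the H3K27Ac groups overlapped. Against all promoter peaks its mean H3K27Ac stood at percentile 55.3 at 5 mM and 39.5 at 25 mM.

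Glutathione synthesis starts with glutamate-cysteine ligase, whose catalytic subunit is encoded by Gclc and whose modifier subunit by Gclm. At Gclm (ENSMUSG00000028124, chr3:122245189-122246546) H3K27Ac was 3.41 and 7.47 RPKM at 5 mM and 24.4 and 13.5 RPKM at 25 mM. The groups did not overlap and the log2 fold change of 1.74 was the largest of any member promoter (SE 0.48, adjusted p = 0.00404). H3K18La there was 0.698, 1.14 and 2.17 RPKM at 5 mM and 3.37, 3.62 and 2.23 RPKM at 25 mM. These groups did not overlap either, by a narrow margin, and the change did not pass (log2 fold change 1.02, SE 0.44, adjusted p = 0.0958), although without the third 5 mM library it did (1.33, adjusted p = 0.0406).

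At Gclc (ENSMUSG00000032350, chr9:77754470-77755156) H3K27Ac was 3.70 and 4.69 RPKM at 5 mM and 18.6 and 7.84 RPKM at 25 mM. The 25 mM libraries were higher, with a log2 fold change of 1.44 (SE 0.46, adjusted p = 0.0120), or 0.84 without the first 25 mM library. H3K18La was 3.45, 1.69 and 2.14 RPKM at 5 mM and 8.15, 2.86 and 0.982 RPKM at 25 mM. The 25 mM libraries both topped and undercut the 5 mM libraries, the lowest holding 2 reads, and the log2 fold change of 0.31 was the smallest among member promoters for this mark (95% interval -0.95 to 1.56, adjusted p = 0.689). Without the first 25 mM library it was -0.35. Gclc had the highest mean H3K18La of the set at 5 mM, at percentile 93.8 of all promoter peaks, and stood at percentile 81.1 at 25 mM.

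Txnrd1 encodes the cytosolic thioredoxin reductase, which passes electrons from NADPH to thioredoxin. Its promoter peak (ENSMUSG00000020250, chr10:82858337-82860892) is the widest of the set and also covers the start of the lncRNA gene Gm38560 on the other strand. H3K18La was 1.11, 0.453 and 0.576 RPKM at 5 mM and 4.18, 1.44 and 1.45 RPKM at 25 mM. The groups did not overlap, and the log2 fold change of 1.14 did not pass (SE 0.53, adjusted p = 0.117) and was 0.72 without the first 25 mM library. H3K27Ac was 4.43 and 5.80 RPKM at 5 mM and 15.0 and 14.3 RPKM at 25 mM, with close replicates at both levels and a log2 fold change of 1.44 (SE 0.47, adjusted p = 0.0136).

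The superoxide dismutases turn superoxide into hydrogen peroxide, SOD1 in the cytosol and SOD2 in mitochondria. Sod1 (ENSMUSG00000022982, chr16:90220488-90221688) had the least H3K18La of the set at 5 mM, with 0.789, 0.964 and 0 RPKM, and 2.12, 1.64 and 1.68 RPKM at 25 mM. The library without a read is also the shallowest, where a count of 0 allows up to 3 reads or 1.84 RPKM (counting error only), and the log2 fold change of 1.23 did not pass (SE 0.56, adjusted p = 0.110) and was 0.75 without that library. H3K27Ac was 3.85 and 5.23 RPKM at 5 mM and 17.2 and 9.42 RPKM at 25 mM, and its log2 fold change was 1.41 (SE 0.46, adjusted p = 0.0141). The measured values of both marks were higher in every 25 mM library, but the limit of 1.84 RPKM is above 2 of the 3 H3K18La values at 25 mM, so this depth does not separate the H3K18La groups.

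Sod2 (ENSMUSG00000006818, chr17:13007394-13009246) had the highest H3K27Ac of the set at both glucose levels. H3K27Ac was 7.61 and 12.8 RPKM at 5 mM and 34.7 and 19.3 RPKM at 25 mM, with a log2 fold change of 1.35 (SE 0.52, adjusted p = 0.0327), which did not pass without the first 5 mM library (adjusted p = 0.0769). H3K18La was 2.30, 1.46 and 0.795 RPKM at 5 mM and 3.57, 3.85 and 2.37 RPKM at 25 mM. The groups were separate by a small gap, and the log2 fold change of 0.95 did not pass (SE 0.43, adjusted p = 0.107).

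Cat (ENSMUSG00000027187, chr2:103484100-103485605) encodes catalase, which splits hydrogen peroxide in peroxisomes. Its H3K18La levels were 1.57, 1.41 and 0.489 RPKM at 5 mM and 2.03, 1.63 and 1.57 RPKM at 25 mM. The highest 5 mM and lowest 25 mM library met, and the log2 fold change of 0.50 did not pass (SE 0.48, adjusted p = 0.428) and was 0.17 without the third 5 mM library. H3K27Ac was 2.61 and 4.17 RPKM at 5 mM and 7.20 and 6.44 RPKM at 25 mM. These groups did not overlap, and the log2 fold change of 0.94 did not pass (SE 0.44, adjusted p = 0.0828), although without the second 5 mM library it did (1.23, adjusted p = 0.00568). Cat was, with Nqo1, 1 of 2 members whose mean lay below the median promoter peak for H3K27Ac at 25 mM, at percentile 46.9.

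Across the 10 promoters the 25 mM libraries lay wholly above the 5 mM libraries in 7 genes for H3K18La, against 50.4% of all tested promoter peaks, and in 9 genes for H3K27Ac, against 86.1%. The 7 include Sod1, whose H3K18La groups were not separated at this depth, as given above. The median log2 fold change of the members was 1.08 for H3K18La, beside 0.97 over all tested promoter peaks, and 1.38 for H3K27Ac, beside 1.23. Of the 10 members 6 lay above the promoter median for H3K18La and 8 for H3K27Ac. The mean level over the 10 promoter peaks together was 1.29 ± 0.14 RPKM at 5 mM and 3.26 ± 1.07 RPKM at 25 mM for H3K18La (SD, n = 3), a ratio of 2.54, beside 2.80 for all promoter peaks. For H3K27Ac it was 6.21 ± 1.87 and 17.2 ± 5.79 RPKM (SD, n = 2), a ratio of 2.77, beside 2.85. Of every 100000 reads in promoter peaks, the members took 79.5 ± 4.81 at 5 mM and 71.1 ± 8.42 at 25 mM for H3K18La, and 106 ± 3.69 and 102 ± 7.91 for H3K27Ac, which overlapped within each mark.

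**Figure D2:**
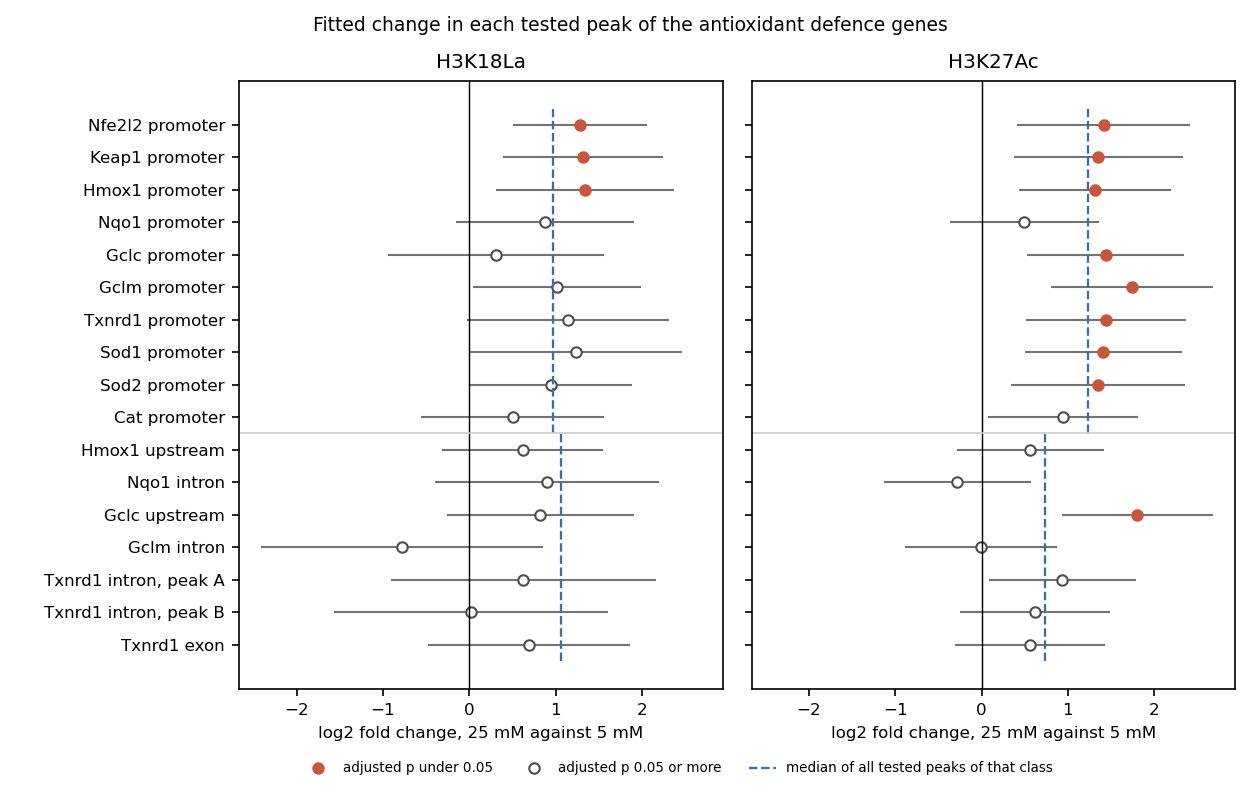
Fitted log2 fold change, 25 mM against 5 mM glucose, of the 17 tested peaks with 95% intervals for H3K18La (left) and H3K27Ac (right); filled points passed the adjusted p of 0.05 and dashed lines are the medians of all tested promoter (upper block) and non-promoter (lower block) peaks. Promoter points lie around their dashed line, and all 7 non-promoter points for H3K18La lie left of theirs.

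The order of the promoters by level was loose. At 25 mM H3K27Ac ran from Sod2 (27 RPKM), Nfe2l2 (25.9) and Keap1 (23.1) through Gclm (18.9), Txnrd1 (14.6), Sod1 (13.3) and Gclc (13.2) to Hmox1 (8.85), Cat (6.82) and Nqo1 (4.80 RPKM). Of the 9 pairs of neighbours 7 overlapped in their libraries, and the pairs that did not were Hmox1 with Cat and Cat with Nqo1. At 5 mM the same mark ran from Sod2 (10.2 RPKM) to Cat (3.39 RPKM), and all 9 pairs overlapped. H3K18La ran from Gclc (2.43 RPKM) to Sod1 (0.584 RPKM) at 5 mM and from Nfe2l2 (5.63 RPKM) to Cat (1.74 RPKM) at 25 mM, and again all 9 pairs overlapped at each level. Levels of the 2 marks come from different antibodies and are not compared with each other.

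**Figure D3:**
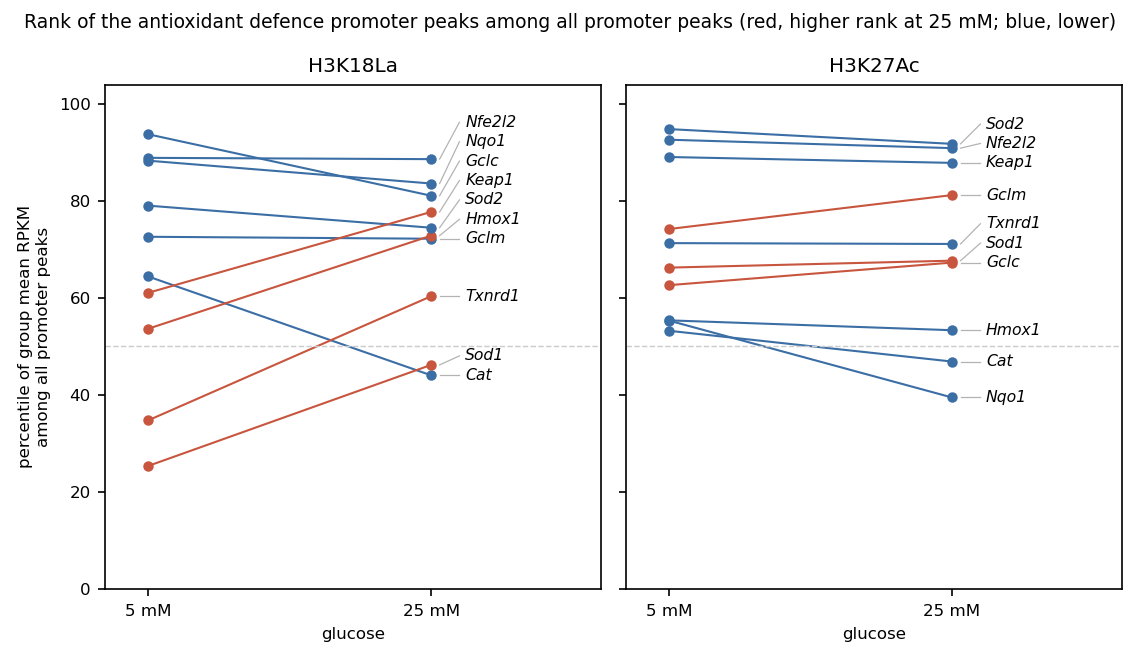
Percentile of each member's mean RPKM among all 17144 promoter peaks at 5 mM and 25 mM glucose, for H3K18La (left) and H3K27Ac (right); red lines rise and blue lines fall, and the dashed line marks the median promoter peak. For H3K18La Sod1 and Txnrd1 rose in rank and Cat and Gclc fell, while for H3K27Ac Nqo1 fell furthest.

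Ranks among all promoter peaks set aside a shift that all peaks share. For H3K18La, Txnrd1 stood at percentile 34.7 at 5 mM and 60.4 at 25 mM, Sod1 at 25.4 and 46.2, Hmox1 at 53.6 and 72.8 and Keap1 at 61.0 and 77.7. Cat went the other way, from 64.5 to 44.1, as did Gclc, from 93.8 to 81.1, Nqo1, from 88.3 to 83.6, and Sod2, from 79.0 to 74.5. Nfe2l2 and Gclm held their rank, at 88.9 and 88.6 and at 72.6 and 72.2. For H3K27Ac, Sod2 stood at percentile 94.8 and 91.8, Nfe2l2 at 92.6 and 90.9 and Gclm at 74.2 and 81.2. These ranks were not tested, and for H3K18La they rest on 0 to 23 reads per library at 5 mM.

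The calls depended on which libraries and which scaling were used. Leaving out either 25 mM H3K27Ac library left 0 of 17 member peaks called for that mark, and without the second 5 mM library it was 13. Over all 72467 tested peaks 9 and 878 were called without the first and the second 25 mM library and 38534 without the second 5 mM library, so the calls moved in the whole table and not in the members alone. For H3K18La 0 were called without the first 25 mM library, and 1 without the second 5 mM or the second 25 mM library, where all peaks gave 16636, 20439 and 14383 calls. Scaling each library to its reads in peaks called 0 member peaks for both marks in limma, and 0 of all peaks. Without a filter on low values 2 were called for H3K18La and 0 for H3K27Ac, of 18390 and 0 over all peaks. Centring on the median tested peak called 0 member peaks too, of 1239 and 965 over all peaks, and moved the median of all tested peaks from 1.04 to 0.16 for H3K18La and from 0.83 to 0.14 for H3K27Ac on the log2 scale. After centring the log2 fold change was positive at 7 of the 10 member promoters for H3K18La, with Nqo1, Gclc and Cat negative, and at 9 for H3K27Ac, with Nqo1 negative at -0.19. The median over all tested promoter peaks was then 0.088 for H3K18La, below the 0.16 over all tested peaks, and 0.54 for H3K27Ac, above the 0.14. Positive signs thus followed the promoters as a class for H3K27Ac but not for H3K18La. A direction for the set as a whole therefore refers to the deposited scaling.

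Outside promoters few member peaks passed. For H3K18La 0 of the 7 tested peaks passed in limma, 0 at an unadjusted p under 0.05 and 1 in voom, against 35.0% of all tested non-promoter peaks that rose. Their median log2 fold change was 0.62, beside 1.06 over all non-promoter peaks, and all 7 lay below that median. For H3K27Ac 1 of 7 rose, against 27.2%, with a median of 0.56 beside 0.74. The 25 mM libraries lay wholly above the 5 mM libraries in 1 of 7 peaks for H3K18La, against 50.3%, and in 3 of 7 for H3K27Ac, against 64.1%. These peaks held 0 to 17 reads per library for H3K18La.

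The exception was the peak upstream of Gclc (chr9:77750184-77751536), whose nearest edge lies 2999 bases before the start and which holds the element shown above. H3K27Ac was 2.05 and 2.74 RPKM at 5 mM and 12.3 and 7.37 RPKM at 25 mM. Both 25 mM libraries were above both 5 mM libraries, and the log2 fold change of 1.81 was the largest of the tested member peaks for this mark (SE 0.44, adjusted p = 0.00154). H3K18La there was 0.350, 0.856 and 1.09 RPKM at 5 mM and 1.88, 1.64 and 1.5 RPKM at 25 mM, without overlap, and did not pass (log2 fold change 0.82, SE 0.49, adjusted p = 0.210). Its ratio of observed to expected CpG was 0.81, beside a median of 0.18 over all non-promoter peaks.

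The corresponding peak upstream of Hmox1 (chr8:75088994-75090567, nearest edge 3054 bases before the start) holds 4 cores, and neither mark passed there. H3K27Ac was 2.06 and 2.25 RPKM at 5 mM and 3.80 and 3.08 RPKM at 25 mM. The groups did not overlap but the log2 fold change of 0.56 did not pass (SE 0.44, adjusted p = 0.301). H3K18La was 0.904, 1.35 and 2.34 RPKM at 5 mM and 2.26, 2.66 and 2.57 RPKM at 25 mM, with overlap and a log2 fold change of 0.62 (SE 0.43, adjusted p = 0.269). At 5 mM its mean H3K18La of 1.53 RPKM was above that of the Hmox1 promoter peak (0.973 RPKM), within the spread of the libraries, and at 25 mM it was below.

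**Figure D4:**
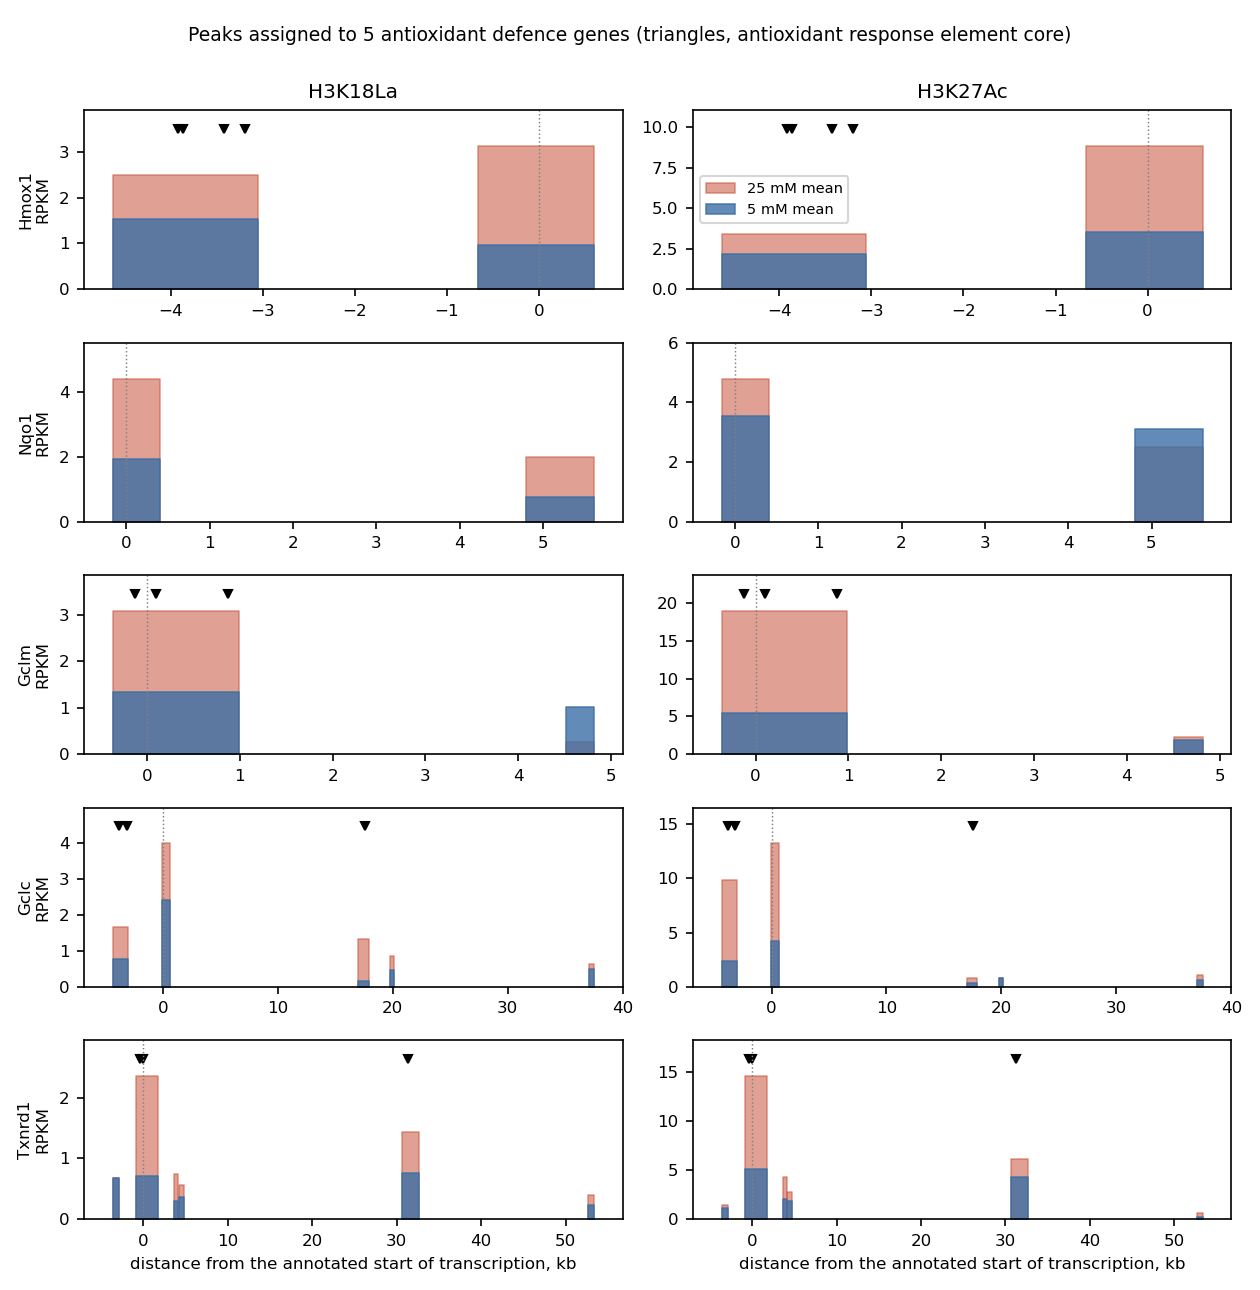
Mean RPKM at 5 mM (blue) and 25 mM (red, overlaid) of every peak assigned to 5 genes, drawn to width against the distance from the annotated start of transcription (dotted line), for H3K18La (left) and H3K27Ac (right); black triangles mark antioxidant response element cores within peaks. The log2 fold changes of the Gclc upstream, Hmox1 upstream and Nqo1 intron peaks were 1.81, 0.56 and -0.28 for H3K27Ac and 0.82, 0.62 and 0.90 for H3K18La.

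The remaining peaks were weak. In intron 1 of Nqo1 (chr8:107397594-107398404) H3K27Ac was 3.42 and 2.78 RPKM at 5 mM and 1.89 and 3.16 RPKM at 25 mM, the most negative fitted change of the tested member peaks for this mark (log2 fold change -0.28, 95% interval -1.13 to 0.57, adjusted p = 0.628). H3K18La there was 1.17, 0.238 and 0.908 RPKM at 5 mM and 0.627, 2.43 and 2.91 RPKM at 25 mM, and the groups overlapped, with a log2 fold change of 0.90 that was the highest of the 7 tested peaks outside promoters for this mark (adjusted p = 0.249). Without the second 5 mM library the Gclc upstream peak ranked above it. In intron 1 of Gclm (chr3:122250068-122250372) H3K18La was 0, 0.633 and 2.41 RPKM at 5 mM and 0, 0.806 and 0 RPKM at 25 mM. No library held more than 1 H3K18La read in that peak, so its log2 fold change of -0.78, the most negative of the set for this mark, carries no direction (adjusted p = 0.424). H3K27Ac there was 2.27 and 1.58 RPKM at 5 mM and 3.65 and 0.883 RPKM at 25 mM, with a log2 fold change of -0.01 (adjusted p = 0.994).

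Of the 5 Txnrd1 peaks outside its promoter the strongest covered exon 13 (chr10:82889815-82891856). H3K27Ac there was 2.60 and 5.99 RPKM at 5 mM and 5.31 and 7.06 RPKM at 25 mM, with overlap and a log2 fold change of 0.56 (adjusted p = 0.315). Without the first 5 mM library it was 0.029, and without the second it was 1.09 and passed (adjusted p = 0.0154). H3K18La was 0.464, 0.378 and 1.44 RPKM at 5 mM and 1.74, 1.57 and 0.991 RPKM at 25 mM, with a log2 fold change of 0.69 (adjusted p = 0.327). In the 2 peaks of its first intron H3K27Ac means were 2.03 and 1.85 RPKM at 5 mM and 4.32 and 2.72 RPKM at 25 mM, and neither passed (adjusted p = 0.0786 and 0.260). The 5 member peaks left out of the test, 3 of Gclc and 2 of Txnrd1, held 0 to 4 H3K18La reads and 0 to 10 H3K27Ac reads per library. One of them, in intron 1 of Gclc (chr9:77771542-77772432), had 0, 2 and 0 H3K18La reads at 5 mM and 3, 4 and 3 at 25 mM, or means of 0.144 and 1.3 RPKM. Its H3K18La groups did not overlap, and in a fit without the filter the change did not pass (log2 fold change 1.55, adjusted p = 0.0656). H3K27Ac there rested on 1 and 2 reads at 5 mM and 3 and 7 at 25 mM, also without overlap (log2 fold change 0.60, adjusted p = 0.354). The H3K27Ac groups did not overlap either at the Txnrd1 peak between genes, with 1 and 0 against 3 and 3 reads, and in the other 3 peaks the groups overlapped in both marks.

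Whether glucose moved the marks differently was tested as an interaction over all 10 libraries. Of 72467 peaks 0 passed in limma (0%), 3650 had an unadjusted p under 0.05 and 0 passed in voom. Among the 17 member peaks 0 had an unadjusted p under 0.05. The H3K27Ac change exceeded the H3K18La change by at most 1.13 on the log2 scale, at the Gclc promoter (95% interval -0.69 to 2.95), and fell short of it by at most 1.18, at the Nqo1 intron peak (difference -1.18, 95% interval -2.85 to 0.49). These intervals cover differences of either sign.

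The wider pathway was described with 57 further genes in 4 lists, of which 45 had a promoter peak and all 45 were tested, using the strongest promoter peak of each gene. For H3K18La 13 of 45 rose (28.9%, median log2 fold change 1.08) and for H3K27Ac 26 of 45 (57.8%, median 1.17), shares near those of all promoter peaks given above. None fell in limma in either mark, none at an unadjusted p under 0.05 and none in voom. Among the regulators of KEAP1 and NRF2, 4 of 10 rose for H3K18La and 8 of 10 for H3K27Ac. Cul3, the scaffold of the ubiquitin ligase that KEAP1 serves, rose in both, with log2 fold changes of 1.93 and 1.70 (adjusted p = 0.00991 and 0.00573). Among genes of glutathione synthesis and use 2 of 12 and 6 of 12 rose, among thioredoxins and peroxiredoxins 2 of 11 and 6 of 11, and among genes of superoxide, heme, iron and other NRF2 targets 5 of 12 and 6 of 12.

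For H3K18La the largest changes in these lists were those of Gpx4, which reduces lipid peroxides in membranes, at 2.03 RPKM at 5 mM and 12.6 RPKM at 25 mM (log2 fold change 2.28, adjusted p = 0.00142), and Me1, the cytosolic malic enzyme that supplies NADPH (1.78 and 9.36 RPKM, log2 fold change 2.14, adjusted p = 0.000980). The smallest were Ccs, the copper chaperone of SOD1, with 0.601 and 0.378 RPKM (log2 fold change -0.41, adjusted p = 0.598), and Blvra, a biliverdin reductase, with 0.539 and 0.551 RPKM (-0.02, adjusted p = 0.984). For H3K27Ac the largest were Park7, which encodes DJ-1, at 3.21 and 21.3 RPKM (log2 fold change 2.59, adjusted p = 1.89e-05) and Gpx4 again, at 7.72 and 36.3 RPKM (2.17, adjusted p = 0.00114). The smallest were Gpx3, a secreted glutathione peroxidase, at 2.30 and 1.36 RPKM (-0.61, adjusted p = 0.284) and Gstm1, at 1.55 and 2.18 RPKM (0.39, adjusted p = 0.50), whose reads may be shared with near-identical family members. None of the 10 members reached the size of change seen at Gpx4 in either mark. These genes were named for their place at either end of the lists, so their values are a description.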

How the data were processed

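Per the labels and the study's methods, CUT&Tag reads were aligned to GRCm38, and MACS peaks found in at least 2 replicates were taken as consensus peaks. The methods quantify binding on merged consensus H3K18La peaks of developing retina, and the deposited table has as many peaks as that set, so its peaks were most likely not called in the explants or for H3K27Ac. Peaks were annotated with ChIPseeker 1.34.1 (promoter, 1000 bases before to 500 after a start) and counted. The deposited table gives RPKM per peak and library, scaled by the authors to the reads of each library; whole reads were recovered for 100% of values (tolerance 0.01 reads). A further deposited table holds the authors' own edgeR 3.40.2 comparison for H3K18La (log2 fold changes, p-values and group means) and was not used. The labels' extraction text names an antibody to H3K9me3 where the study's methods name one to H3K27Ac; groups follow the sample titles.

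Peaks with a mean of at least 1 RPKM over the 10 libraries were tested with limma 3.58.1 in R 4.3.3 (intensity trend, log2(RPKM + 0.5), each mark alone, Benjamini-Hochberg over 72467 peaks, threshold 0.05). The interaction used all 10 libraries. In the H3K27Ac fit limma estimated infinite prior degrees of freedom, so that all peaks took the trended variance. The estimate depended on the setting and was finite in others, such as 2.82 without a filter on low values and 30.1 with a pseudocount of 0.1. RPKM are not counts, so this replaced the count model of the study. The gene set and lists were chosen with earlier results of these data known; within the set every peak was taken by symbol. Text names all 10 genes, with the promoter peak of each and its strongest other peak, the largest and smallest change per mark, and the 2 largest and 2 smallest changes per mark over the pathway lists. The fit was tested on simulated data with large changes at stronger peaks and no shift shared by all peaks. That test says little about small changes at weak peaks. The filter on low values was chosen because a fit over all peaks called no simulated H3K27Ac change in earlier work on these data. Motifs were searched in GRCm38, where 99.722% of the named transcripts had the same coordinates in GENCODE M21, and the promoter sequences are those of RefSeq (9 of 10 members with 1 window, Txnrd1 with 3). Depth was 1358008 to 7424470 reads a library; intervals and floors cover counting error only where they are based on reads. Alternatives were other pseudocounts, no filter, other scalings, voom, a joint fit, a replicate block, averaging 5 mM H3K18La replicates 2 and 3, and leaving out each library. Read counts of the 5 mM H3K18La libraries differed by little more than counting error (chi-square per degree of freedom 1.038 to 1.062). With replicates 2 and 3 averaged, limma called 23558 H3K18La peaks, 2 of them member peaks, and the Keap1 promoter did not pass (adjusted p = 0.0512).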

Additional observations from a re-analysis of the deposited data

How the results depend on the processing

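The count of called H3K18La peaks, 24221, was 1239 after centring each library on the median tested peak, 0 after scaling to reads in peaks, 12036 at an adjusted p of 0.01 and 14383 to 23391 with 1 library left out. The count of called member peaks, 3, was 0 under both scalings (1 and 0 at an unadjusted p under 0.05), 7 in voom (29562 over all peaks), 5 with all 10 libraries in 1 fit (30304) and 0 to 4 with 1 library left out. The median member log2 fold change of 0.87 was 1.14 and 0.70 with pseudocounts of 0.1 and 1, 1.11 in voom, -0.0043 after centring and -0.17 after scaling to reads in peaks. For H3K27Ac the 24375 calls became 0 without a filter on low values, 965 and 0 under the scalings, 7349 in the joint fit, 9942 at 0.01 and 9 to 38534 with 1 library left out, and the 9 member calls became 0, 0, 0 and 3 under the first 4 of these and 0 to 13 with 1 library left out. At an unadjusted p under 0.05 the first 3 gave 10, 6 and 1 member peaks. The member median of 1.31 became 0.85, 0.62 and 0.11. With 1 H3K27Ac library in an arm, that library is assumed to vary like the others. With the replicate block there were 23446 H3K18La and 7813 H3K27Ac calls, 2 and 1 of them member peaks. Deviations of same-numbered libraries correlated at 0.0132 to 0.0288. Counting error at this depth could hide a pairing, and with 2 H3K27Ac libraries per level the deviations mirror each other. Whether libraries were paired is therefore not decided. Interaction calls stayed at 0 in all alternatives run. The cause of these shifts was not tested.

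Changes of sign after centring and after scaling to reads in peaks, in that order: for H3K18La promoters, Nqo1 -0.0043 and -0.37, Gclc -0.57 and -0.97, Cat -0.38 and -0.59, and in the second setting alone Gclm -0.12 and Sod2 -0.23; for the strongest other H3K18La peaks, Gclc -0.055 and -0.17, Txnrd1 -0.19 and -0.27, Hmox1 -0.26 and -0.56, and in the second alone Nqo1 -0.046. For H3K27Ac they were the Nqo1 promoter at -0.19 and -0.60, Txnrd1 exon at -0.13 and -0.57, Hmox1 upstream at -0.13 and -0.50 and, in the second alone, the Cat promoter at -0.21. With 1 library left out the H3K18La Gclc promoter ranged from -0.35 to 0.93, the H3K27Ac Nqo1 promoter from -0.075 to 1.07, the H3K27Ac Nqo1 intron peak from -0.59 to 0.028 and the H3K27Ac Gclm intron peak from -0.80 to 0.79, the last being 0.024 with a pseudocount of 1. No called peak changed sign. In whole peaks instead of windows, the share of member promoters with the response element core was 60% instead of 20%, and with a GC box 100% instead of 60%. Member promoters held 0 to 46 H3K18La reads per library, which limits the precision of single levels of that mark.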
